A study of Homo sapiens
Mus musculus with 5 samples.

Results

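Extracellular matrix glycoprotein and proteoglycan genes were compared between brain tumors and lung tumors grown from 1 human lung adenocarcinoma line. The genes were taken by symbol from a human and a mouse expression table. They were the laminin chains, tenascins, thrombospondins, fibulins, fibrillins, latent TGF-beta binding proteins (LTBPs), nidogens, perlecan (HSPG2), agrin (AGRN), SPARC and SPARCL1, the lecticans, the small leucine-rich proteoglycans DCN, BGN and LUM, fibronectin (FN1), vitronectin (VTN) and periostin (POSTN). This gave 84 of 50152 listed genes, 40 of 25524 in the human table and 44 of 24628 in the mouse table. ACAN, BGN, DCN, FBLN2, FBLN5, LUM and NID2 are 7 symbols analysed in the mouse table only, and the 3 symbols FBN3, LAMB4 and TNR are human members only.

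Every tumor came from H2030-BrM3, a line from a lung adenocarcinoma that was selected for its growth in brain, and every host was an athymic nu/nu mouse, a strain without a thymus and so without most T cells. Brain tumors gave 3 libraries. Orthotopic lung tumors, for which the labels give intratracheal injection of the cells, gave 2. Each RNA library was read against both genomes, so that the human table holds reads assigned to the cancer cells and the mouse table those assigned to the host tissue of the same tumor. Separate animals are not stated in the labels, and p-values therefore measure only the spread between these samples. With 1 line, nothing here separates the site of growth from what is particular to that line.

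The extracellular matrix is the secreted scaffold between cells. Laminins, each built of an alpha, a beta and a gamma chain, polymerise with nidogens, perlecan and agrin into basement membranes around epithelia and vessels. Fibronectin, fibrillins, fibulins, LTBPs, periostin, decorin and biglycan belong mainly to the interstitial matrix laid down by fibroblasts, while brain tissue holds little fibrillar matrix and is rich instead in hyaluronan bound by lecticans such as brevican and neurocan. Tenascins, thrombospondins and SPARC are matricellular proteins, which modulate how cells attach rather than building the scaffold.

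Human depth was 8419288, 6393890 and 2445904 reads for brain tumors 1, 2 and 3, against 6541037 and 3733689 reads for lung tumors 1 and 2. Mouse depth was 2710983 to 8636094 reads for the brain tumors, against 231156 in lung tumor 1 and 5295159 in lung tumor 2. The low mouse depth of lung tumor 1 touches every host value given for it, and 5 mouse members were listed at 0 there. Lung tumor 1 also stood apart by gene length. In it the longest 20% of genes lay below their own means, by a median of -0.54 on the log2 scale in the human table and -0.82 in the mouse table, while the other 4 libraries lay above theirs. Among these longest genes were 18 of 40 tested mouse members but 5 of 24 tested human members. The tissue labels were checked on host marker genes. Summed brain markers stood at 18007 to 20802 RPKM in the brain tumors and at 187 to 297 RPKM in the lung tumors, where RPKM are reads scaled to gene length and to the reads of the library. Summed lung markers stood at 54.9 to 435 RPKM in the brain tumors and at 3754 to 72661 RPKM in the lung tumors. The members took 0.564%, 0.574% and 0.642% of the human reads in the brain tumors, against 0.323% and 0.604% in the lung tumors. They took 0.996%, 0.696% and 0.693% of the mouse reads in the brain tumors, against 1.60% and 1.64% in the lung tumors.

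In the host table fibronectin, periostin, biglycan, decorin and all 4 LTBPs were among the genes that fell in the brain tumors, while the brain lecticans brevican and neurocan were among those that rose. Of 40 mouse members with enough signal to test (an RPKM of at least 1 in at least 2 libraries), 17 fell and 4 rose in the brain tumors at a limma adjusted p under 0.05. Over all 15431 mouse genes tested, 22.4% were called, 8.12% lower and 14.3% higher in the brain tumors. The median log2 fold change, brain minus lung on the log2(RPKM + 1) scale used throughout, was -1.72 for the tested members and 0.08 for all mouse genes tested. With a gene length correction these medians were -2.39 and -0.07. In that fit 25 members were called, 21 lower and 4 higher, beside 3783 of all 15431 mouse genes tested. Among the 17 that fell were Fn1, Postn, Fbln2, Fbn1, Ltbp1, Ltbp2, Ltbp3, Ltbp4, Lamb1, Lamb2, Hspg2, Bgn, Dcn, Tnc, Thbs1 and Thbs2. The 4 that rose were Bcan, Ncan, Sparcl1 and Vtn. Bcan, Bgn, Fbln2, Fn1, Lamb1, Ltbp2, Ltbp4, Ncan, Postn, Thbs1 and Tnc, 11 of the 21, were called under each of the 17 alternatives tried. The 4 mouse members not tested were Acan, Fbn2, Lama1 and Tnn. The groups did not overlap for 5 tested members higher and 23 lower in the brain tumors, where 56.1% of all mouse genes tested did not overlap (30.0% higher, 26.2% lower). At an unadjusted p under 0.05 there were 4 members higher and 22 lower, beside 38.5% of all mouse genes tested. In bulk tissue, fewer cells of a type and less RNA per cell cannot be told apart.

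**Figure D1:**
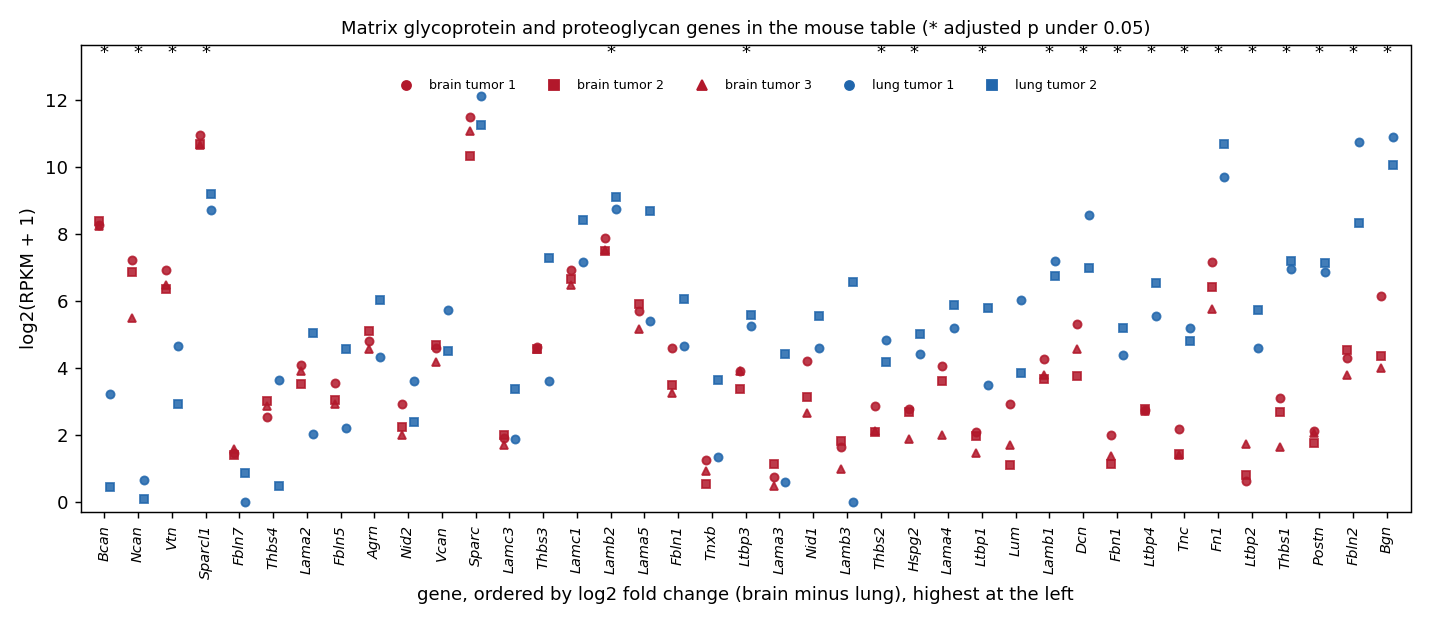
Level of 39 tested mouse members as log2(RPKM + 1) on the vertical axis, with genes along the horizontal axis by log2 fold change, brain minus lung; each point is 1 library, brain tumors red and lung tumors blue, and a star marks a limma adjusted p under 0.05. Bcan and Ncan stand at the high end, with fold changes of 6.46 and 6.14, and Bgn at the low end, at -5.65.

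In the human table the same families gave no gene past the test. Of 24 human members tested, 0 passed at a limma adjusted p under 0.05, where 1 of 14423 human genes (0.00693%) did, and 0 passed with voom on the recovered reads. At an unadjusted p under 0.05 there were 9 members, 6 higher and 3 lower in the brain tumors, beside 10.5% of all human genes tested. The groups did not overlap for 7 members higher and 4 lower in the brain tumors, beside 17.4% and 12.3%, or 29.7% in either direction, of all human genes tested. The median log2 fold change was 0.34 for the tested members and 0.09 for all human genes tested. The 16 human members that were not tested were POSTN, FBLN7, FBN2, FBN3, LAMA1, LAMA2, LAMA4, LAMB4, NCAN, VCAN, NID1, TNN, TNR, TNXB, THBS2 and THBS4. Apart from POSTN they had at most 0.851 RPKM in any library. POSTN reached 2.07 RPKM, from 16 reads, in brain tumor 3.

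**Figure D2:**
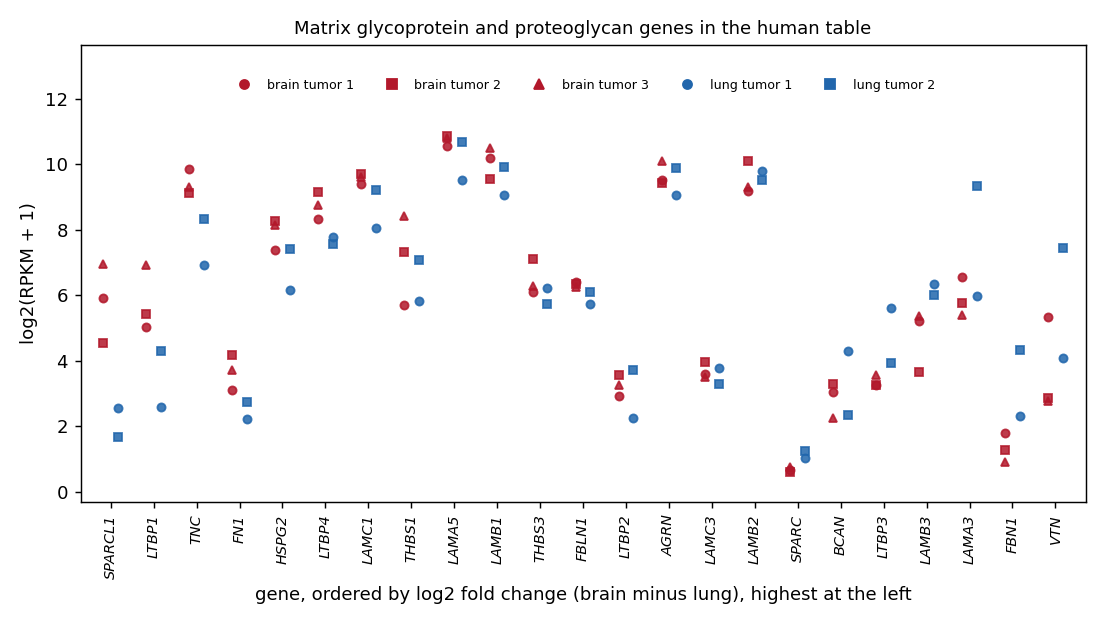
Level of 23 tested human members as log2(RPKM + 1) on the vertical axis, with genes along the horizontal axis by log2 fold change, brain minus lung; each point is 1 library, brain tumors red and lung tumors blue. SPARCL1, LTBP1 and TNC stand at the left with all 3 brain tumors above both lung tumors, but 0 of the 23 genes drawn passed the test.

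The human members lay at a median deviation of -0.54 in lung tumor 1, against -0.06 to 0.30 in the other 4 libraries. Without lung tumor 2, so that lung tumor 1 stood alone for the lung and was assumed to vary like the brain tumors, 7 human members were called, and 2183 of 14013 human genes with them. These were TNC, LAMC1, LAMA5, HSPG2, LTBP1 and SPARCL1, higher in the brain tumors, and LTBP3, lower. Without lung tumor 1, or without any 1 of the brain tumors, 0 human members were called.

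The chains LAMA5, LAMB1, LAMB2 and LAMC1 form laminins of epithelial and vascular basement membranes, and 0 of them passed the test in the cancer cells. LAMA5 had 1517, 1850 and 1775 RPKM in the brain tumors, against 727 and 1632 RPKM in the lung tumors. LAMB1 had 1163, 755 and 1456 RPKM in the brain tumors, against 537 and 966 RPKM in the lung tumors. For LAMA5 all brain tumors lay above both lung tumors except that brain tumor 1 was below lung tumor 2, and for both genes lung tumor 1 was the lowest library. LAMC1, the common gamma chain (chromosome 1 from 183023420 to 183145592 in GRCh38), had 672, 836 and 786 RPKM in the brain tumors, against 267 and 596 RPKM in the lung tumors. Its groups did not overlap (log2 fold change 0.93, SE 0.42, limma adjusted p = 0.478), or 0.35 without lung tumor 1 and 1.51 without lung tumor 2. LAMB2 had 581, 1100 and 637 RPKM in the brain tumors, against 880 and 732 RPKM in the lung tumors, and the groups overlapped.

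The epithelial chains LAMA3 and LAMB3, which help anchor epithelial cells through hemidesmosomes, had lower fitted values in the brain tumors without passing the test. LAMB3 had 35.9, 11.6 and 40.6 RPKM in the brain tumors, against 79.8 and 63.6 RPKM in the lung tumors. Both lung tumors were above all brain tumors (log2 fold change -1.43, SE 0.53, limma adjusted p = 0.470). LAMA3 had 94.0, 53.7 and 41.1 RPKM in the brain tumors, against 62.5 and 641 RPKM in the lung tumors. Lung tumor 2 alone stood high for LAMA3 and the groups overlapped. LAMC3 ranged from 8.84 to 14.7 RPKM over the 5 libraries. Human LAMA1, LAMA2, LAMA4 and LAMB4 had at most 0.392 RPKM in any library and were not tested.

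In the host, 3 of 10 tested laminin chains fell in the brain tumors and 0 rose, where 22.4% of all mouse genes tested were called, 8.12% lower and 14.3% higher. Lamb1 had 18.3, 11.7 and 12.8 RPKM in the brain tumors, against 144 and 107 RPKM in the lung tumors. The groups lay far apart (log2 fold change -3.06, SE 0.34, limma adjusted p = 0.00335). Lamb2, the beta chain of mature vascular and synaptic basement membranes, had 235, 180 and 182 RPKM in the brain tumors, against 428 and 552 RPKM in the lung tumors (log2 fold change -1.29, SE 0.31, limma adjusted p = 0.0348). The Lamb2 call was lost when any 1 of the brain tumors was left out (limma adjusted p from 0.0940 to 0.167).

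Lama4 and Lamc1, chains of the vascular basement membrane, were lower in all brain tumors but did not pass the test. Lama4 had 15.7, 11.2 and 3.02 RPKM in the brain tumors, against 35.8 and 57.9 RPKM in the lung tumors (log2 fold change -2.31, limma adjusted p = 0.0592). Lamc1 had 122, 99.8 and 89.1 RPKM in the brain tumors, against 141 and 343 RPKM in the lung tumors (-1.10, limma adjusted p = 0.129). Without lung tumor 1 both were called, at -2.65 (limma adjusted p = 0.0469) and -1.73 (limma adjusted p = 0.00536), and without lung tumor 2 neither was, at -1.97 (limma adjusted p = 0.0752) and -0.46 (limma adjusted p = 0.186). Lama2, Lama3, Lama5, Lamb3 and Lamc3 overlapped between the groups. Lama5 had 50.6, 58.8 and 35.2 RPKM in the brain tumors, against 41.7 and 415 RPKM in the lung tumors, with lung tumor 2 alone high. Lamb3 had 2.10, 2.51 and 0.991 RPKM in the brain tumors, against 0 in lung tumor 1 and 92.9 RPKM in lung tumor 2. Lama1 was not tested, with at most 21 reads in any library.

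Perlecan is the heparan sulfate proteoglycan of basement membranes, and agrin a related proteoglycan that also organises synapses and the vessel wall of the brain. Human HSPG2 had 165, 305 and 280 RPKM in the brain tumors, against 69.9 and 168 RPKM in the lung tumors, with brain tumor 1 just below lung tumor 2 (log2 fold change 1.15, SE 0.46, limma adjusted p = 0.471), or 0.52 without lung tumor 1 and 1.77 without lung tumor 2. Human AGRN had 727, 687 and 1093 RPKM in the brain tumors, against 528 and 946 RPKM in the lung tumors, and overlapped (0.21, limma adjusted p = 0.855). In the host, Hspg2 fell. It had 5.85, 5.50 and 2.73 RPKM in the brain tumors, against 20.2 and 31.7 RPKM in the lung tumors (log2 fold change -2.26, SE 0.46, limma adjusted p = 0.0215). That call was lost without any 1 of the brain tumors (limma adjusted p from 0.0699 to 0.0860).

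Host Nid1, which links the laminin and collagen IV networks, had 17.5, 7.74 and 5.29 RPKM in the brain tumors, against 23.0 and 45.8 RPKM in the lung tumors. All brain tumors were lower, but the test was not passed (log2 fold change -1.74, limma adjusted p = 0.0853); without lung tumor 1 it was, at -2.22 (limma adjusted p = 0.0388), and without lung tumor 2 it stood at -1.25 (limma adjusted p = 0.129). Nid2 overlapped, with 3.04 to 6.64 RPKM in the brain tumors and 4.24 to 11.2 RPKM in the lung tumors. Agrn had 26.9, 33.2 and 22.6 RPKM in the brain tumors, against 19.0 and 64.8 RPKM in the lung tumors, and overlapped (-0.36, limma adjusted p = 0.666). Host endothelial markers, which bear on vessel basement membranes, summed to 248 to 482 RPKM in the brain tumors and 468 to 2579 RPKM in the lung tumors. Of those 10 markers 1 fell and 0 rose. Host mural markers summed to 153 to 312 RPKM in the brain tumors and 770 to 2051 RPKM in the lung tumors. Of these 10 markers 5 fell, beside 8.12% of all mouse genes tested. The part of vessel cells in the basement membrane values was not tested.

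Tenascin-C is the matricellular tenascin of developing, wounded and tumor tissue, and its human gene TNC lies on chromosome 9 from 115019575 to 115118157 in GRCh38. In the cancer cells TNC (ENSG00000041982.15) had 917, 559 and 635 RPKM in the brain tumors, from 10562, 4898 and 2117 reads. It had 120 and 322 RPKM in the lung tumors, from 1070 and 1650 reads. All brain tumors lay above both lung tumors, and lung tumor 1 was the lowest. The log2 fold change was 1.80 (SE 0.47, unadjusted p = 0.00468, limma adjusted p = 0.389), and it was 1.09 without lung tumor 1 and 2.51 without lung tumor 2 (limma adjusted p = 0.379 and 0.0159).

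In the host, Tnc fell in the brain tumors. It had 3.57, 1.69 and 1.63 RPKM in the brain tumors, against 35.7 and 27.0 RPKM in the lung tumors (log2 fold change -3.33, SE 0.45, limma adjusted p = 0.00563). The brain tumor values rest on 69, 59 and 100 reads. Tnxb, a tenascin of connective tissue, had 1.40, 0.461 and 0.893 RPKM in the brain tumors, against 1.56 and 11.6 RPKM in the lung tumors (limma adjusted p = 0.170). It was called without lung tumor 1, at -2.74 (limma adjusted p = 0.00914), where it rested on 4 reads, and stood at -0.45 without lung tumor 2 (limma adjusted p = 0.462). Human TNXB had at most 3 reads in any library. Human TNR, for tenascin-R of the brain, was listed at 0.0223 RPKM in brain tumor 1 and at 0 in the other 4 libraries.

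THBS1, which activates latent TGF-beta and restrains angiogenesis, had 51.4, 160 and 340 RPKM in the human table in the brain tumors, against 56.3 and 134 RPKM in the lung tumors. The brain tumors spanned both lung tumors (log2 fold change 0.69, SE 0.73, limma adjusted p = 0.713). Human THBS3 ranged from 68.3 to 136 RPKM in the brain tumors and from 51.9 to 74.1 RPKM in the lung tumors and overlapped. Host Thbs1 fell, with 7.53, 5.38 and 2.13 RPKM in the brain tumors, against 123 and 145 RPKM in the lung tumors. Its log2 fold change was -4.60 (SE 0.50, limma adjusted p = 0.00312).

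Host Thbs2, an antiangiogenic relative of Thbs1, had 6.27, 3.29 and 3.35 RPKM in the brain tumors, against 27.8 and 17.1 RPKM in the lung tumors. It fell by 2.15 on the log2 scale (SE 0.46, limma adjusted p = 0.0241), a call lost without any 1 of the brain tumors (limma adjusted p from 0.0602 to 0.113). Thbs3 was steady in the brain tumors at 23.7, 22.7 and 22.7 RPKM, while the lung tumors stood on either side at 11.3 and 156 RPKM. Lung tumor 1 rests on 2 Thbs3 reads. The log2 fold change of Thbs3 was -0.87 (limma adjusted p = 0.564), but -2.70 without lung tumor 1 (limma adjusted p = 0.000835) and 0.96 without lung tumor 2 (limma adjusted p = 0.0288). Thbs4 overlapped, with 4.77 to 7.03 RPKM in the brain tumors and 0.408 to 11.6 RPKM in the lung tumors.

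Fibrillins form the microfibrils of elastic tissue, fibulins bind elastic fibres and basement membranes, and LTBPs hold latent TGF-beta in the matrix. In the cancer cells LTBP1, which lies on chromosome 2 from 32946953 to 33399509 in GRCh38, had 31.7, 41.8 and 122 RPKM in the brain tumors, from 220, 221 and 245 reads. It had 5.02 and 18.8 RPKM in the lung tumors, from 27 and 58 reads. All brain tumors were above both lung tumors (log2 fold change 2.35, SE 0.68, unadjusted p = 0.00791, limma adjusted p = 0.433). It was called at 3.21 without lung tumor 2 (limma adjusted p = 0.0354) and stood at 1.49 without lung tumor 1 (limma adjusted p = 0.567).

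LTBP4, needed for elastic fibre assembly, had 323, 571 and 435 human RPKM in the brain tumors, against 220 and 190 RPKM in the lung tumors. The groups did not overlap (log2 fold change 1.07, SE 0.36, limma adjusted p = 0.459). Human FBLN1 had 83.0, 80.1 and 75.8 RPKM in the brain tumors, against 52.6 and 67.2 RPKM in the lung tumors (0.41, SE 0.31, limma adjusted p = 0.600). LTBP3 and FBN1 were lower in all brain tumors. LTBP3 had 8.57, 8.53 and 10.8 RPKM in the brain tumors, against 48.0 and 14.2 RPKM in the lung tumors. Its log2 fold change was -1.42 (SE 0.53, limma adjusted p = 0.470). It stood at -2.26 without lung tumor 2 and at -0.57 without lung tumor 1. FBN1 had 2.50, 1.44 and 0.898 RPKM in the brain tumors, against 3.97 and 19.3 RPKM in the lung tumors (-1.99, SE 0.64, limma adjusted p = 0.454), or -3.01 without lung tumor 1 and -0.97 without lung tumor 2. LTBP2 overlapped, with 3.74 to 12.3 RPKM over the 5 libraries.

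In the host 6 of 9 tested members of these families fell and 0 rose, beside the 8.12% of all mouse genes tested that were called lower. Fbln2, a fibulin of vessel walls and connective tissue, had 18.9, 22.0 and 12.9 RPKM in the brain tumors, against 1726 and 318 RPKM in the lung tumors. Its log2 fold change was -5.33 (SE 0.73, limma adjusted p = 0.00594), and was -4.11 without lung tumor 1 and -6.54 without lung tumor 2, both called. Fbn1 had 3.04, 1.19 and 1.61 RPKM in the brain tumors, against 20.1 and 35.3 RPKM in the lung tumors (log2 fold change -3.28, SE 0.49, limma adjusted p = 0.00780). It missed the threshold without brain tumor 2 (limma adjusted p = 0.0519).

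All 4 host LTBPs fell. Ltbp4 had 5.74, 5.85 and 5.54 RPKM in the brain tumors, against 46.3 and 92.0 RPKM in the lung tumors (log2 fold change -3.31, SE 0.41, limma adjusted p = 0.00428). Ltbp2 had 0.539, 0.744 and 2.34 RPKM in the brain tumors, against 23.1 and 51.6 RPKM in the lung tumors (-4.10, SE 0.57, limma adjusted p = 0.00637). Ltbp3 had 14.0, 9.32 and 14.0 RPKM in the brain tumors, against 37.4 and 47.3 RPKM in the lung tumors (-1.70, SE 0.35, limma adjusted p = 0.0223). Ltbp1 had 3.30, 2.92 and 1.76 RPKM in the brain tumors, against 10.3 and 54.6 RPKM in the lung tumors (-2.80, SE 0.73, limma adjusted p = 0.0438). For each of the 4 genes both lung tumors were above all brain tumors. Ltbp1 in lung tumor 1 rests on 8 reads, and its fold change was -3.95 without lung tumor 1 and -1.65 without lung tumor 2. The calls of Ltbp1 and Ltbp3 were lost without any 1 of the brain tumors (limma adjusted p from 0.0729 to 0.155).

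Host Fbln1 was lower in all brain tumors, at 23.0, 10.2 and 8.63 RPKM, against 24.1 and 66.4 RPKM in the lung tumors, and did not pass (log2 fold change -1.58, limma adjusted p = 0.117). Without lung tumor 1, where it had 13 reads, it was called at -2.29 (limma adjusted p = 0.0245), and without lung tumor 2 it stood at -0.87 (limma adjusted p = 0.221). Fbln5 overlapped, with 6.61 to 10.7 RPKM in the brain tumors and 3.62 to 23.0 RPKM in the lung tumors. Fbln7 was the 1 member of these families whose fitted value was higher in the brain tumors, at 1.62 to 2.00 RPKM, against 0 and 0.844 RPKM in the lung tumors (limma adjusted p = 0.132). Fbn2 was not tested, with 0.238 to 1.04 RPKM in the brain tumors and 0.335 to 0.402 RPKM in the lung tumors.

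Fibronectin, vitronectin and periostin are adhesive glycoproteins. Fibronectin is laid down by fibroblasts and vessels, vitronectin circulates in plasma and is also made by brain pericytes, and periostin marks activated stroma. Host Fn1 had 143, 84.1 and 53.3 RPKM in the brain tumors, against 828 and 1661 RPKM in the lung tumors. It fell by 3.75 on the log2 scale (SE 0.53, limma adjusted p = 0.00674). Host Postn had 3.37, 2.39 and 3.14 RPKM in the brain tumors, against 115 and 140 RPKM in the lung tumors, a fall by 5.02 (SE 0.34, limma adjusted p = 0.00115). Both were called under every alternative tried.

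Host Vtn rose. It had 121, 80.9 and 88.7 RPKM in the brain tumors, against 24.4 and 6.59 RPKM in the lung tumors, the first from 6 reads. The log2 fold change was 2.80 (SE 0.56, limma adjusted p = 0.0196), or 3.67 without lung tumor 1 and 1.93 without lung tumor 2. The call was lost without any 1 of the brain tumors (limma adjusted p from 0.0758 to 0.0868). In the human table VTN had 39.5, 6.25 and 5.91 RPKM in the brain tumors, against 16 and 174 RPKM in the lung tumors, and the groups overlapped (-2.11, SE 1.05, limma adjusted p = 0.493), or -3.79 without lung tumor 1 and -0.42 without lung tumor 2. Human FN1 had 7.56, 17.2 and 12.1 RPKM in the brain tumors, from 78, 135 and 36 reads, against 3.63 and 5.67 RPKM in the lung tumors, from 29 and 26 reads (1.19, SE 0.47, limma adjusted p = 0.471). Human FN1 reads stood at 70.8, 115 and 27.5 per 1000 mouse Fn1 reads in the brain tumors, against 53.1 and 1.04 in the lung tumors. For host marker genes with at least 100 mouse reads, the median was 11.4, 2.72 and 1.37 in the brain tumors, against 83.2 (over 4 markers) and 1.64 in the lung tumors, so both lung tumors were below it for FN1. With that share of the mouse reads taken off, an alternative chosen after seeing the data, the FN1 fold change was 3.56 (limma adjusted p = 0.177). With host signal subtracted it was 3.51 (limma adjusted p = 0.218). Both subtractions left no FN1 signal in either lung tumor. These values therefore give the brain level over the pseudocount and not a measured fold. The host brain markers summed to 414 and 650 RPKM in the human table in lung tumors 1 and 2. The share taken off can therefore include reads of the cancer cells themselves. Whether the human FN1 reads of the lung tumors came from the cancer cells was not tested.

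SPARC is a collagen-binding matricellular protein of vessels and stroma, and SPARCL1 (hevin) its relative, made in brain chiefly by astrocytes and vessels, where it promotes synapse formation. Host Sparcl1 had 1999, 1646 and 1626 RPKM in the brain tumors, against 416 and 587 RPKM in the lung tumors. It rose (log2 fold change 1.82, SE 0.37, limma adjusted p = 0.0205), a call lost without any 1 of the brain tumors (limma adjusted p from 0.0916 to 0.113). Host Sparc overlapped, with 2882, 1272 and 2149 RPKM in the brain tumors, against 4484 and 2424 RPKM in the lung tumors (-0.73, limma adjusted p = 0.379).

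Human SPARCL1, on chromosome 4 from 87473335 to 87529376 in GRCh38, had the largest fitted difference of the human members. It had 60.0, 22.1 and 122 RPKM in the brain tumors, from 364, 102 and 214 reads, against 4.90 and 2.22 RPKM in the lung tumors, from 23 and 6 reads. The log2 fold change was 3.68 (SE 0.67, unadjusted p = 0.000508, limma adjusted p = 0.304), and it was called at 3.24 without lung tumor 2 (limma adjusted p = 0.0499) but not without lung tumor 1, at 4.11 (limma adjusted p = 0.235). The same tumors held many mouse Sparcl1 reads, and human reads stood at 35.2, 6.62 and 8.01 per 1000 mouse reads of the gene in the brain tumors, against 125 and 1.01 in the lung tumors. The medians of the host marker genes are those given above for FN1. With that share of the mouse reads taken off, the fold change was 4.59 (limma adjusted p = 0.290). Lung tumor 2, which lay below its marker median, was left with no SPARCL1 signal by this step, under the limit given for FN1. Human SPARC had only 3, 2 and 1 reads in the brain tumors, against 4 and 3 reads in the lung tumors, or 0.0581 to 4.14 per 1000 mouse Sparc reads.

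Brevican (Bcan) and neurocan (Ncan) are hyaluronan-binding chondroitin sulfate proteoglycans of brain matrix and perineuronal nets, aggrecan (Acan) is shared with cartilage, and versican (Vcan) is widespread. Host Bcan had 305, 331 and 299 RPKM in the brain tumors, from 863, 1695 and 2696 reads, against 8.26 and 0.362 RPKM in the lung tumors, from 2 reads each. The log2 fold change was 6.46 (SE 0.78, limma adjusted p = 0.00406), or 7.84 without lung tumor 1 and 5.08 without lung tumor 2. Host Ncan had 149, 115 and 44.0 RPKM in the brain tumors, against 0.586 and 0.0771 RPKM in the lung tumors, from 1 and 3 reads. Its log2 fold change was 6.14 (SE 0.60, limma adjusted p = 0.00230).

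Host Acan was not tested under the filter, with 0.942, 0.920 and 1.64 RPKM in the brain tumors, against 0 in both lung tumors. Its 13, 23 and 72 reads in the brain tumors gave a pooled level at least 12.2-fold higher than the 3 reads that a pooled count of 0 in the lung tumors allows at 95% confidence. Such a bound on pooled reads leaves out the spread between tumors, and most mouse reads of the lung tumors came from lung tumor 2. Vcan overlapped, at 23.0, 24.5 and 17.1 RPKM in the brain tumors, against 51.9 and 21.9 RPKM in the lung tumors (limma adjusted p = 0.342). In the cancer cells the lectican tested was BCAN, at 7.27, 8.84 and 3.77 RPKM in the brain tumors, against 18.7 and 4.09 RPKM in the lung tumors, with overlap (-0.46, limma adjusted p = 0.790). Its fold change was 0.52 without lung tumor 1 and -1.43 without lung tumor 2. With host signal subtracted it was -1.59, and with the marker share of mouse reads taken off -0.67. NCAN had at most 4 and VCAN at most 3 human reads in any library. Host astrocyte and neuron markers moved with the lecticans, as did most of the oligodendrocyte precursor markers but not their sum. Astrocyte markers summed to 13876 to 15547 RPKM in the brain tumors and 276 to 410 RPKM in the lung tumors, neuron markers to 4011 to 6088 RPKM and 63.1 to 120 RPKM. Of 10 markers each, 9 and 10 rose. Oligodendrocyte precursor markers summed to 153 to 259 RPKM in the brain tumors and 171 to 366 RPKM in the lung tumors. Of these 8 markers 5 rose and 0 fell, beside 14.3% and 8.12% of all mouse genes tested. The list shares Pdgfra with the fibroblast list and Cspg4 with the mural list. The part of these cell types in the lectican values was not tested.

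Decorin (Dcn), biglycan (Bgn) and lumican (Lum) bind collagen fibrils and were analysed in the host only. Bgn had 69.8, 19.7 and 15.0 RPKM in the brain tumors, against 1917 and 1074 RPKM in the lung tumors (log2 fold change -5.65, SE 0.70, limma adjusted p = 0.00429), or -6.30 without brain tumor 1. Dcn had 39.0, 12.7 and 22.9 RPKM in the brain tumors, against 380 and 125 RPKM in the lung tumors (-3.22, SE 0.65, limma adjusted p = 0.0201). The Dcn fold change was -2.42 without lung tumor 1 and -4.02 without lung tumor 2, and the call was lost without brain tumor 2 (limma adjusted p = 0.0762) or 3 (0.0918). Lum had 6.60, 1.15 and 2.24 RPKM in the brain tumors, against 65.0 and 13.5 RPKM in the lung tumors, and just missed the threshold (-3.04, limma adjusted p = 0.0511). It was called at -4.14 without lung tumor 2 (limma adjusted p = 0.00478), and not without lung tumor 1, at -1.94 (limma adjusted p = 0.0925).

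Host fibroblast markers moved with the genes that fell. They summed to 813, 225 and 144 RPKM in brain tumors 1, 2 and 3, and to 16485 and 10326 RPKM in lung tumors 1 and 2. Of 10 tested markers 5 fell, beside 8.12% of all mouse genes tested, and Tcf21 was listed at 0 in all brain tumors. The list includes the matrix genes Col1a1, Col1a2, Col3a1, Col6a3, Lox and Mfap4, so its sum is no measure of fibroblasts apart from matrix RNA. The part of fibroblasts in these values was not tested.

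The brain-lung difference of the cancer table was then set against that of the host table. Both tables come from the same 5 libraries, so the log2 difference between the human and the mouse gene was taken within each library and fitted with limma, over 10189 symbols tested in both tables. Of 24 member pairs 11 were called, 10 with the human difference above the mouse difference and 1 below. Over all pairs 14.3% were called, 6.55% above and 7.72% below.

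**Figure D3:**
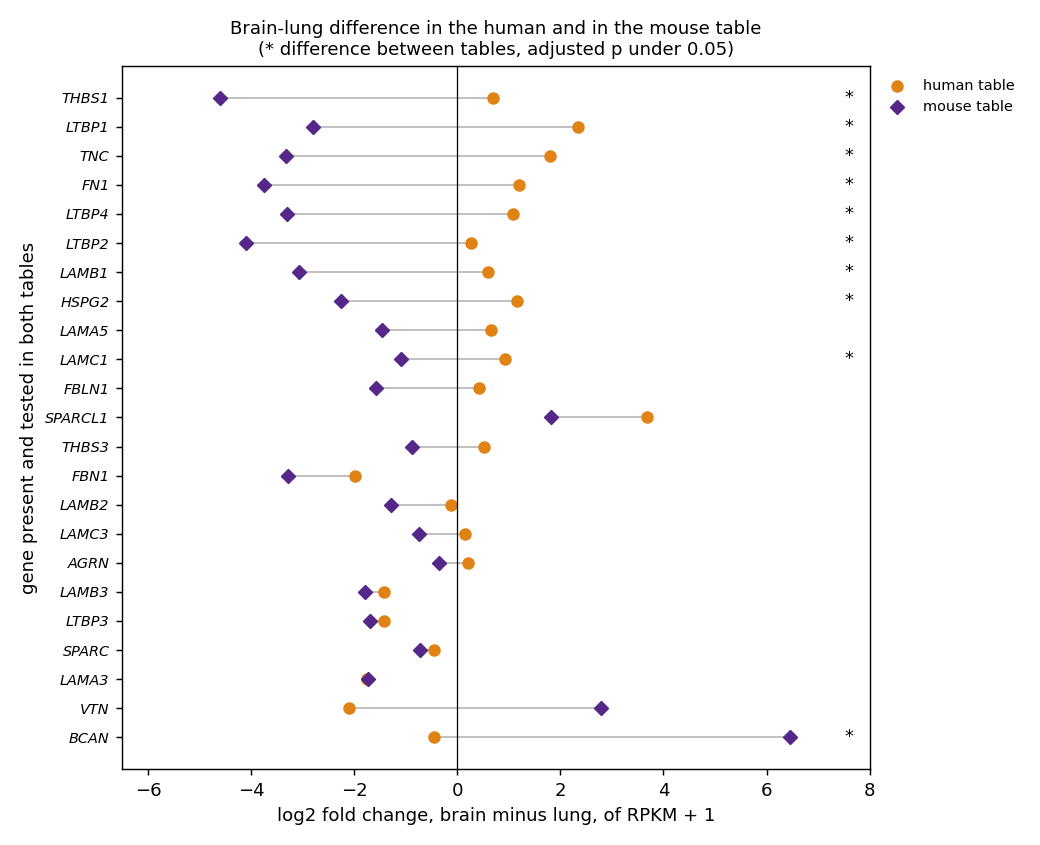
Log2 fold change, brain minus lung, of RPKM + 1 on the horizontal axis for 23 members tested in both tables, human circles and mouse diamonds joined by a line; a star marks the 10 pairs whose difference between tables had a limma adjusted p under 0.05. For TNC the human point is at 1.80 and the mouse point at -3.33, while for BCAN the order is the other way, at -0.46 and 6.46.

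The human difference lay above the mouse one for TNC by 5.13 (SE 0.61, limma adjusted p = 0.00599), LTBP1 by 5.15, LTBP4 by 4.38, LTBP2 by 4.36, FN1 by 4.94 and THBS1 by 5.30. It also did so for LAMB1 by 3.65, HSPG2 by 3.41 and LAMC1 by 2.03, where the limma adjusted p ran from 0.0111 to 0.0184. For TNC, LTBP1, LTBP4 and LAMC1 all brain tumors were above both lung tumors in the human table and below both in the mouse table. BCAN was the 1 pair with the human difference below the mouse one, by -6.91 (SE 0.50, limma adjusted p = 0.00253). FBLN1 (2.00, limma adjusted p = 0.0524), VTN (-4.90, 0.0717) and LAMA5 (2.12, 0.0837) did not pass, and SPARCL1 (1.86, 0.198) did not either.

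The BCAN, LTBP1, LTBP2, LTBP4 and TNC calls held in all 15 alternatives for this fit. The FN1, HSPG2 and LAMC1 calls were lost without brain tumor 2 or 3 (limma adjusted p from 0.0551 to 0.0891), and the LAMB1 call without brain tumor 3 (0.0557). The LAMC1 call was also lost with the replicate block (limma adjusted p = 0.0809). THBS1 was lost without brain tumor 2 (0.0783), brain tumor 3 (0.0660, with the difference at 4.25) or lung tumor 1 (0.0840), and stood at 6.33 without brain tumor 1. For TNC the difference was 4.23 without lung tumor 1 and 6.04 without lung tumor 2, for LAMB1 3.02 and 4.29, and for LTBP4 4.97 and 3.78. LTBP1 stood at 4.39 without brain tumor 3 and FN1 at 5.58 without brain tumor 1.

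Reads of the same gene in both tables show which compartment a matrix RNA was assigned to. The implied gene lengths of RPKM differ between the tables by more than 4-fold for 13.8% of pairs (HSPG2 646 bases in human and 14480 in mouse), so reads and not RPKM were set side by side, and each share was compared between libraries of 1 gene. Of all reads, 75.6%, 56.5% and 22.1% were human in the brain tumors, against 96.6% and 41.4% in the lung tumors. TNC reads were human for 99.4%, 98.8% and 95.5% in the brain tumors, against 94.8% and 61.9% in the lung tumors. LAMA5 reads were human for 99.1%, 97.9% and 94.1% in the brain tumors, against 99.8% and 75.8% in the lung tumors. Lung tumor 2 had the lowest human share of both genes. Brain tumor 3, the library with the smallest human share of all reads, stood far above it.

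LTBP1 reads were human for 88.0%, 82.2% and 82.8% in the brain tumors, against 77.1% and 5.66% in the lung tumors. THBS1 reads were human for 78.2%, 86.8% and 88.5% in the brain tumors, against 68.5% and 9.95% in the lung tumors. Lung tumor 2 had the lowest human share of both genes, and in it the mouse genes had 967 and 2552 reads. FN1 reads were mostly mouse in every library, with 6.61%, 10.3% and 2.68% human reads in the brain tumors, against 5.04% and 0.104% in the lung tumors. SPARCL1 had 3.40%, 0.658% and 0.794% human reads in the brain tumors, against 11.1% and 0.101% in the lung tumors.

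VTN had 37.4%, 5.59% and 1.09% human reads in the brain tumors, against 91.5% and 91.7% in the lung tumors. BCAN had 8.48%, 4.18% and 0.443% human reads in the brain tumors, against 98.8% and 90.9% in the lung tumors. For both genes the brain tumors, with their many mouse reads, lay apart from the lung tumors. How many reads were assigned to the wrong species was not measured over all genes. In lung tumor 1, the library with the largest human share, LAMB3 had 2096 human and 0 mouse reads and LAMA5 had 1.82 mouse reads per 1000 human reads.

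**Figure D4:**
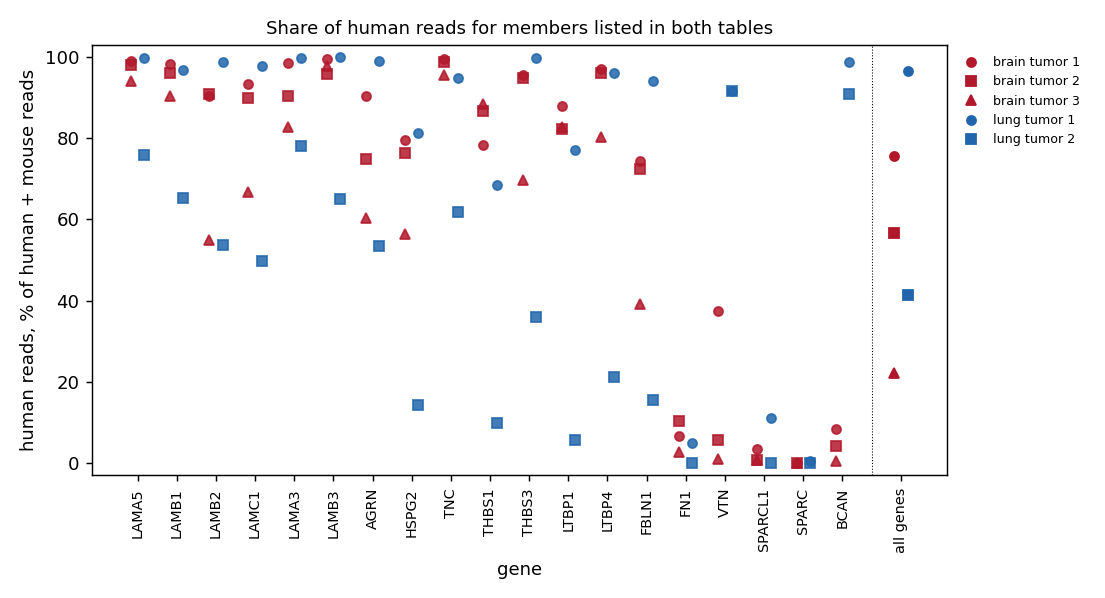
Human reads as a percentage of human plus mouse reads on the vertical axis for 19 member genes and, right of the dotted line, for all genes; each point is 1 library, brain tumors red and lung tumors blue. TNC and LAMA5 stand at 94.1% or more in all brain tumors, while FN1, SPARCL1 and SPARC stay at 11.1% or less in every library.

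The rest of the matrix pathway was counted on lists outside the members. Of 34 tested host genes for other matrix glycoproteins, 11 fell and 4 rose in the brain tumors, with a median log2 fold change of -1.33. Over all mouse genes tested, 8.12% were called lower and 14.3% higher. Of 14 human genes of this list 0 passed with limma, with a median of -0.05. At an unadjusted limma p under 0.05 there were 8, beside 10.5% of all human genes tested. Mfap5, a microfibril protein, had 1.93, 0.798 and 0.303 RPKM in the brain tumors, against 208 and 40.5 RPKM in the lung tumors (-5.62, limma adjusted p = 0.00625). Mgp, an inhibitor of calcification, had 313, 99.8 and 65.4 RPKM, against 12765 and 1280 RPKM (-4.98, limma adjusted p = 0.0277). The testican Spock1 had 62.6, 70.5 and 94.9 RPKM in the brain tumors, against 2.87 and 0.189 RPKM in the lung tumors (5.14, limma adjusted p = 0.00325). Spock3 had 33.4, 25.2 and 35.5 RPKM in the brain tumors, against 0 reads in the lung tumors. The 95% bound over pooled reads, with the limits given for Acan, was at least 177-fold higher. In the cancer cells SPP1 (osteopontin) had 3674, 5348 and 2367 RPKM in the brain tumors, against 4960 and 3330 RPKM in the lung tumors, and overlapped. SPOCK1 had 178, 785 and 212 RPKM in the brain tumors, against 146 and 91.2 RPKM in the lung tumors (1.42, limma adjusted p = 0.475).

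Of 24 tested host genes for other proteoglycans and hyaluronan, 7 rose and 3 fell in the brain tumors, with a median of -0.18. Over all mouse genes tested, 14.3% were called higher and 8.12% lower. Of 15 human genes of this list 0 passed with limma, with a median of 0.08. At an unadjusted limma p under 0.05 there were 2, beside 10.5% of all human genes tested. Ptprz1, a receptor phosphatase proteoglycan of glia, had 115, 121 and 113 RPKM in the brain tumors, against 0 and 2.22 RPKM in the lung tumors (6.04, limma adjusted p = 0.00205). Hapln2, a link protein at the nodes of myelinated axons, had 62.1, 34.3 and 71.5 RPKM in the brain tumors, against 0 reads in the lung tumors. Its 95% bound over pooled reads, with the same limits, was at least 43.6-fold higher. Cspg5 (neuroglycan C) had 63.2, 73.7 and 43.4 RPKM in the brain tumors, against 0 and 0.341 RPKM in the lung tumors (5.69, limma adjusted p = 0.00124). The cell surface proteoglycan Sdc1 fell, with 9.27, 4.42 and 2.78 RPKM in the brain tumors, against 246 and 270 RPKM in the lung tumors (-5.44, limma adjusted p = 0.00205). In the cancer cells SRGN and SDC1 did not pass; SDC1 had 576, 227 and 377 RPKM in the brain tumors, against 753 and 1079 RPKM in the lung tumors (-1.29, limma adjusted p = 0.464).

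Enzymes that build glycosaminoglycan chains were counted next. Of 25 tested host genes 3 rose and 4 fell, beside 22.4% called among all mouse genes tested, with a median of -0.04. Of 23 human ones 0 passed with limma, with a median of 0.16. At an unadjusted limma p under 0.05 there were 4, beside 10.5% of all human genes tested. Xylt1, which starts the chains, had 31.2, 49.0 and 23.2 RPKM in the brain tumors, against 5.91 and 7.0 RPKM in the lung tumors (2.19, limma adjusted p = 0.0175). Dse, the dermatan sulfate epimerase, had 4.95, 2.83 and 1.23 RPKM, against 13.0 and 14.5 RPKM (-1.99, limma adjusted p = 0.0455). Extl2, a chain-length glycosyltransferase, rose by 1.98 on the log2 scale and the chondroitin sulfotransferase Chst12 fell by 1.93. Human NDST1, which sulfates heparan chains, had 357, 402 and 317 RPKM in the brain tumors, against 117 and 283 RPKM in the lung tumors (0.97, limma adjusted p = 0.474), and EXTL3 did not pass either. Of 23 tested host matrix receptor genes 7 fell and 1 rose, with a median of -0.86. Over all mouse genes tested, 8.12% were called lower and 14.3% higher. Of 18 human matrix receptor genes 0 passed with limma, with a median of 0.02. At an unadjusted limma p under 0.05 there were 3, beside 10.5% of all human genes tested. Itgb8, an integrin subunit that activates latent TGF-beta, had 54.7, 46.1 and 46.9 RPKM in the brain tumors, against 3.44 and 2.11 RPKM in the lung tumors (3.75, limma adjusted p = 0.00218). Itga5, of the fibronectin receptor, had 9.14, 5.00 and 1.58 RPKM, against 98.2 and 34 RPKM (-3.45, limma adjusted p = 0.0244). The thrombospondin receptor Cd36 fell by 5.89 and the hyaluronan receptor Lyve1 by 4.85 on the log2 scale. Human ITGB1 had 958, 1586 and 906 RPKM in the brain tumors, against 190 and 1041 RPKM in the lung tumors, and overlapped (1.32, limma adjusted p = 0.496). Human ITGA3, a laminin receptor subunit, overlapped too, at 638 to 663 RPKM in the brain tumors, against 433 and 771 RPKM in the lung tumors.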

How the data were processed

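RNA of 3 brain and 2 lung tumors was sequenced with standard Illumina protocols, per the labels. The values the authors deposited are RPKM, per the file names, in 1 human (hg38, GRCh38) and 1 mouse (mm10, GRCm38) table, per the submitters' processing notes. Not given in the sources used here are the aligner, the counter, the lengths behind RPKM and how a read was assigned to a species. The library numbers in the sample descriptions tied columns to samples, with 0 per-sample columns left unmapped.

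Whole reads were recovered from RPKM as the smallest whole numbers in the ratios between libraries. Every gene of both tables came out whole (tolerance 1e-06 reads), but reads are lower bounds. They are not fixed for 4393 human genes and 3995 mouse genes with signal in only 1 library. Implied lengths of tested members ran from 565 to 4017 bases in human and 483 to 14480 in mouse. Levels of different genes were therefore not set against each other as results, and a planned share of each laminin chain in its family was not used. The rule for naming genes and the marker sums did use RPKM across genes.

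Genes with an RPKM of at least 1 in at least 2 libraries were fitted with limma 3.58.1 (R 4.3.3) on log2(RPKM + 1), brain minus lung, with eBayes and an intensity trend. P-values were two-sided and Benjamini-Hochberg adjusted over all genes tested per table, with a threshold of 0.05. The within-library human minus mouse difference was fitted likewise. An exact permutation of ranks for 3 against 2 libraries, counting both directions, cannot go below p = 0.2 and was not used. The scripts were tested on simulated data. The fits take 0 covariates, since the labels give no batch.

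The members, the gene lists and the tests were chosen with earlier results of these data known. Named were every called member, every member whose groups did not overlap and whose higher group averaged an RPKM of 5 or more, and the 2 members of highest mean RPKM per family; other members are given by range or as chosen after their values were seen. From each pathway list up to 4 called genes by largest fold change, or the 2 genes of highest mean RPKM where 0 were called, were named. Alternatives varied the pseudocount (0.1, 0.5), the filter, the scaling, eBayes, a replicate block, the human read share, gene length, voom on recovered reads, host signal subtraction and each library left out. A member counted in the totals is not reported here. Human positions are those of RefSeq for GRCh38.p14.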

Additional observations from a re-analysis of the deposited data

Results flagged for a closer look

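For 10 member genes the brain-lung difference of the human table differed from that of the mouse table by a test of the difference itself, taken within libraries with limma (human minus mouse, log2 scale, adjusted p under 0.05). The values were -6.91 for BCAN, 4.36 for LTBP2, 4.38 for LTBP4, 5.13 for TNC, 3.65 for LAMB1, 5.15 for LTBP1, 4.94 for FN1, 3.41 for HSPG2, 2.03 for LAMC1 and 5.30 for THBS1. In the human table alone 0 members were called, and the groups overlapped there for BCAN, LTBP2, LAMB1, HSPG2 and THBS1. As given above, the FN1, HSPG2, LAMC1, LAMB1 and THBS1 calls were lost when certain single libraries were left out. Groups of 3 and 2 libraries are too small for a search for single outlying samples.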

How the results depend on the processing

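Of 24 tested human members 0 were called, and 1 (SPARCL1, limma adjusted p = 0.000154) with a replicate block; leaving out 1 library gave 0 to 7. The human table as a whole had 1 call, but 114 with the replicate block, 0 with the human read share as a covariate or voom, 4 with host signal subtracted, and 0 to 2183 with 1 library left out. Of mouse members 21 were called, and 11 to 35 with 1 library left out; of the 21, 14 remained with the replicate block, 13, 11 and 12 without brain tumor 1, 2 or 3, and 21 without either lung tumor. The mouse table had 3457 calls, but 2295 with no filter, 1484 with the replicate block and 1245 to 8084 with 1 library left out. For the difference between tables there were 1454 calls, but 866 with a pseudocount of 0.1, 2186 with no filter, 763 with the replicate block and 301 to 3220 with 1 library left out; member pairs called were 11, and 5 to 14 with 1 library left out. Thbs3 of the mouse table reversed without lung tumor 2 (0.96, against -0.87 in all libraries and -2.70 without lung tumor 1). The cause was not tested. Among gene values there were 349 of the human, 442 of the mouse and 145 of the difference fit that stayed on their side of the threshold, a few of them with a change of sign while not called, while 43 mouse and 20 difference values lost a call and 8 human and 23 mouse values gained one. The replicate block is no pairing given by the labels, and same-numbered tumors deviated together with correlations of -0.08 and 0.06 in human and 0.03 and 0.05 in mouse genes. The median of all genes was 0.09, -0.03 and 0.01 in human and 0.08, 0.22 and -0.11 in mouse as deposited, with median-ratio scaling and with quantile normalization. The human difference was above the mouse one for 45.9% of calls, and for 32.7% with median-ratio scaling. The 231156 mouse reads of lung tumor 1 limit host values there.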
